A study of Oryza sativa with 3 samples.

Results

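The genes of rice chromosome 12 are described here in their order along the chromosome, with the distance of each transgenic line from the control in leaves. A gene was a member if a probe set of the array was annotated to it alone, if the gene table placed it on chromosome 12, and if its mean log2 signal over the arrays exceeded 5.50, the median of all signals, which also served as the floor. Where a gene had several, its brightest probe set on average stood for it. The genes described closely below were chosen by their measured ratios to the control array. Of 908 chromosome 12 genes on the array, 721 passed and 187 did not, out of 14396 genes that passed on all 12 chromosomes. The members next to that limit were LOC4352122, inside it at a mean of 5.53, and LOC9269751, outside it at 5.50. The members were numbered 1 to 721 by their start in the gene table, and 2326 genes are annotated on the chromosome, so a measured neighbour need not be the adjacent gene.

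The samples were B10301 and B10201, lines of the cultivar Guichao2 that carry an OsEBS transgene, and the control, wild-type Guichao2 without it. Each was 1 array of leaf RNA from 10 untreated plants that were 6 weeks old and had grown in a greenhouse at 28 °C under 14 h of light and 10 h of dark. The promoter of the transgene, and whether each line is a single insertion or clone, are not given in the sources used here, and the transcript of the transgene itself was not analysed here. Because there was 1 control array, both lines share it in every ratio, and a difference of that array cannot be told apart from a difference of the lines.

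Genes that lie side by side on a plant chromosome are mostly transcribed independently, but tandem copies of a gene family, shared chromatin state and large structural changes can make neighbours vary together. Chromosome 12 of rice carries many clusters of disease resistance and defence genes, and the end of its short arm is a recent duplicate of the end of chromosome 11. Probe sets with the suffix x_at or s_at may also read such copies. OsEBS is known for its link to plant biomass and grain number.

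In 2 stretches of the deposited table, the B10301 value of a probe set stood 1 row above it, and the value was taken from that row. This touched 135 of the 721 members. Their correlation with the mean of the other arrays, across genes, was 0.283 as deposited and 0.978 after the move, while that of the remaining members was 0.960. Median log2 signals of the members were 9.66 in B10301, 9.69 in B10201 and 9.80 in the control. Of the leaf markers, 3 of 4 were above the floor. The chromosome 12 gene OsrbcS, a Rubisco small subunit, read 15.43 in B10301 and 15.34 in B10201, against 15.09 in the control. CAB2R, a light-harvesting protein gene of chromosome 1, went the other way, with 15.33 in B10301 and 14.10 in B10201, against 15.57 in the control. The summed leaf markers had log2 levels of 17.17 in B10301, 16.72 in B10201 and 16.95 in the control. Markers of other organs were partly detected: 1 of 1 for root, 3 of 8 for seed and 2 of 6 for flower. Their summed log2 levels in B10301, B10201 and the control were 10.15, 10.18 and 9.74 for root, 12.90, 12.61 and 12.71 for seed, and 10.35, 10.38 and 10.47 for flower. The floral gene MADS13, on chromosome 12, was the dimmest of the floral markers and below the floor on every array. MADS16, the brightest of them, read 10.12 in B10301 and 10.21 in B10201, against 10.30 in the control. The part of these markers in the differences was not tested, and in leaf RNA fewer cells of a type cannot be told apart from less RNA per cell.

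On chromosome 12, 53 of the 721 members (7.35%) differed from the control 2-fold or more in each line and in the same direction, against 4.61% of all 14396 genes. Of these 2-fold genes, 19 were higher in both lines (2.64%, against 2.0% of all genes) and 34 were lower (4.72%, against 2.61%). In B10301 by itself, 33 members were at least 2-fold higher and 46 lower than the control, where 3.84% and 4.44% of all genes were. In B10201 by itself, 33 were higher and 59 lower, where 4.62% and 4.49% of all genes were. These values chose what is described, so the counts carry no test. At the threshold, LOC4352601 lay inside with a smaller log2 ratio of 1.03 and LOC4352910 outside with 0.95, while LOC4351679 lay inside with -1.02 and LOC4351260 outside with -0.96.

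The share on chromosome 12 was second to that on chromosome 11, where 12.8% of genes were 2-fold genes, and the other chromosomes lay between 2.51% and 5.70%. Most members lay near the control: the median log2 ratio of its members was -0.01 in B10301 and -0.03 in B10201, beside -0.01 and -0.02 over all genes. The plot of the share by chromosome shows both directions.

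**Figure D1:**
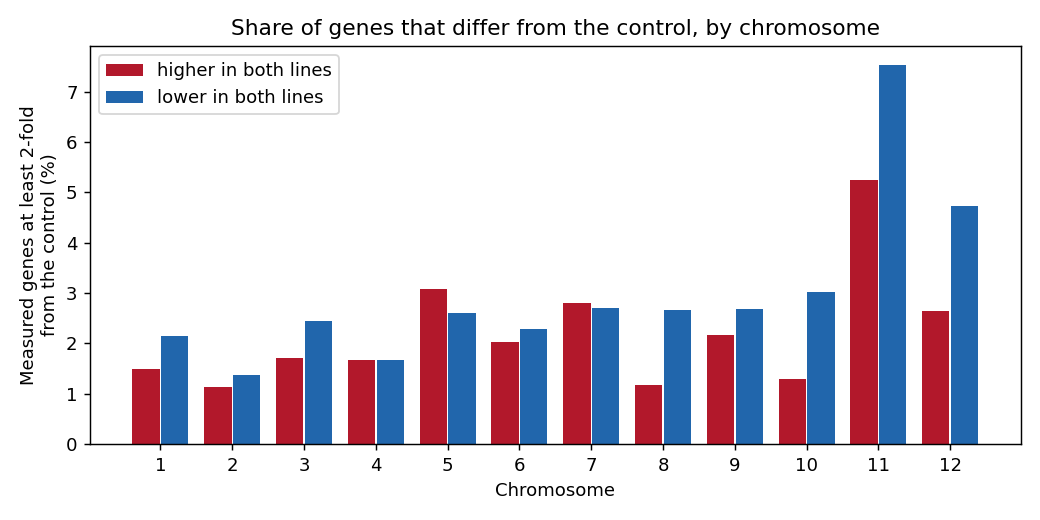
Percentage of measured genes on each rice chromosome that differed 2-fold or more from the control in each transgenic line, with genes higher in both lines as the left bar and genes lower in both lines as the right bar of each pair. Chromosome 12 stood at 2.64% higher and 4.72% lower, and chromosome 11 was above it in both directions.

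Across the whole table, limma, fitted to all 3 arrays with the spread taken from the lines, called 2 chromosome 12 genes after Benjamini-Hochberg adjustment over 14396 genes (0.0278% of all genes were called). At an unadjusted p under 0.05 it passed 169 members (23.4%, against 21.1% of all genes), of which 75 were higher and 94 lower. Both called genes were far higher in the transgenic lines, and neither has a function in the annotation used here. LOC4352807, gene 657 in the order, had log2 signals of 13.36 in B10301 and 13.43 in B10201, against 6.25 in the control, which is 137.6-fold and 145.1-fold. Its mean log2 ratio was 7.14 ± 0.05 (SD, n = 2 lines), with a limma standard error of 0.12 and an adjusted p of 0.0241. LOC9266439, gene 470, had 12.30 in B10301 and 12.27 in B10201, against 5.66 in the control, which is 100.1-fold and 97.6-fold. Its limma log2 ratio was 6.63 with a standard error of 0.14 and an adjusted p of 0.0302. That probe set is of the s_at kind. Another of the same gene, of the x_at kind, read 5.22 in the control, under the floor. Its log2 ratios were at least 1.77 in B10301 and at least 1.59 in B10201. Over the alternative settings, limma's adjusted p ran from 0.00404 to 0.539 for LOC4352807 and from 0.00541 to 0.539 for LOC9266439.

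At 8-fold or more in both lines stood 5 members (0.693%, against 0.264% of all genes). The other 3 were lower, and in each of them the control signal was above the median of the members while both lines were below it. LOC4352102, a transcript with no protein-coding annotation, read 1.78 in B10301 and 4.15 in B10201, both under the floor, against 12.10 in the control, so it was at least 96.7-fold lower in each line. LOC9270774, read by an x_at probe set, had 5.20 in B10301 and 4.40 in B10201, against 10.88 in the control, at least 41.6-fold lower in each line. LOC4352036 had 3.22 in B10301 and 7.23 in B10201, against 11.37 in the control, at least 58.5-fold lower in B10301 and 17.7-fold lower in B10201. Annotation names none of these 3 genes beyond the locus number.

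Among the other genes higher in both lines, LOC4352520 read 9.81 in B10301 and 9.25 in B10201, against 6.37 in the control (10.8-fold and 7.37-fold). LOC4352873 read 9.31 in B10301 and 8.81 in B10201, against 6.65 in the control (6.33-fold and 4.47-fold). LOC4351246, gene 7, was already bright in the control, with 12.88 in B10301 and 12.60 in B10201, against 10.79 in the control (4.26-fold and 3.51-fold). Its other probe set gave similar log2 ratios of 2.12 and 2.20. In 4 of the 19 higher genes the control was under the floor, which leaves a lower bound. LOC4352496 read 7.68 in B10301 and 7.91 in B10201, against 2.14 in the control, and was at least 4.51-fold and at least 5.31-fold higher. LOC4352055 read 7.16 in B10301 and 7.23 in B10201, against 4.01 in the control, at least 3.14-fold and at least 3.31-fold higher, and its B10301 value was moved by 1 row. LOC4352482 was at least 2.88-fold higher in B10301 and at least 6.41-fold higher in B10201. The remaining leading genes differed less: LOC4351349, LOC4352905, LOC4352522 and LOC4352871 had mean log2 ratios between 1.41 and 1.62.

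Among genes lower in both lines with a readable name was CYP71P1 (LOC4351945), the tryptamine 5-hydroxylase that makes serotonin, which builds up in rice leaves under attack. It read 8.38 in B10301 and 8.53 in B10201, against 10.42 in the control, and its mean log2 ratio was -1.96 ± 0.11 (SD over n = 2 lines; limma adjusted p = 0.134). Its other probe set was under the floor on all arrays, and averaging both turned the mean log2 ratio to 0.73. LOC4352891, with a B10301 value moved by 1 row, read 6.39 in B10301 and 5.07 in B10201, against 8.91 in the control, 5.73-fold lower and at least 10.6-fold lower. LOC4352609 read 7.52 in B10301 and 7.92 in B10201, against 9.94 in the control (5.36-fold and 4.06-fold lower). In LOC4352116 the lines were further apart, with 9.06 in B10301 and 7.76 in B10201, against 10.92 in the control (3.61-fold and 8.94-fold lower), and another probe set of the gene gave -1.80 and -1.76 on the log2 scale.

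Along the chromosome the 2-fold genes were unevenly spread. Of 4 parts of nearly equal gene number, the first, genes 1 to 181, held 10 of them, 5 higher and 5 lower (5.52% of its genes). The second, genes 182 to 361, held 9, of which 8 were lower (5.0%). The third, genes 362 to 541, held 13, 6 higher and 7 lower (7.22%), and the last, genes 542 to 721, held 21, 7 higher and 14 lower (11.7%). The last part thus held the highest share and the second one the lowest, and this spread was not tested. Of the 21 in the last part, 6 lie in the run of genes 621 to 637 described below. Probe sets of the x_at and s_at kinds, counted over all members, numbered 31, 20, 16 and 15 from the first part to the last. Their part in the spread of the 2-fold genes was not tested. Long parts of the chromosome held no 2-fold gene: 75 measured genes in a row from gene 368 to gene 442, 57 from gene 116 to gene 172 and 44 from gene 71 to gene 114. The plot of ratios by gene order shows these gaps.

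**Figure D2:**
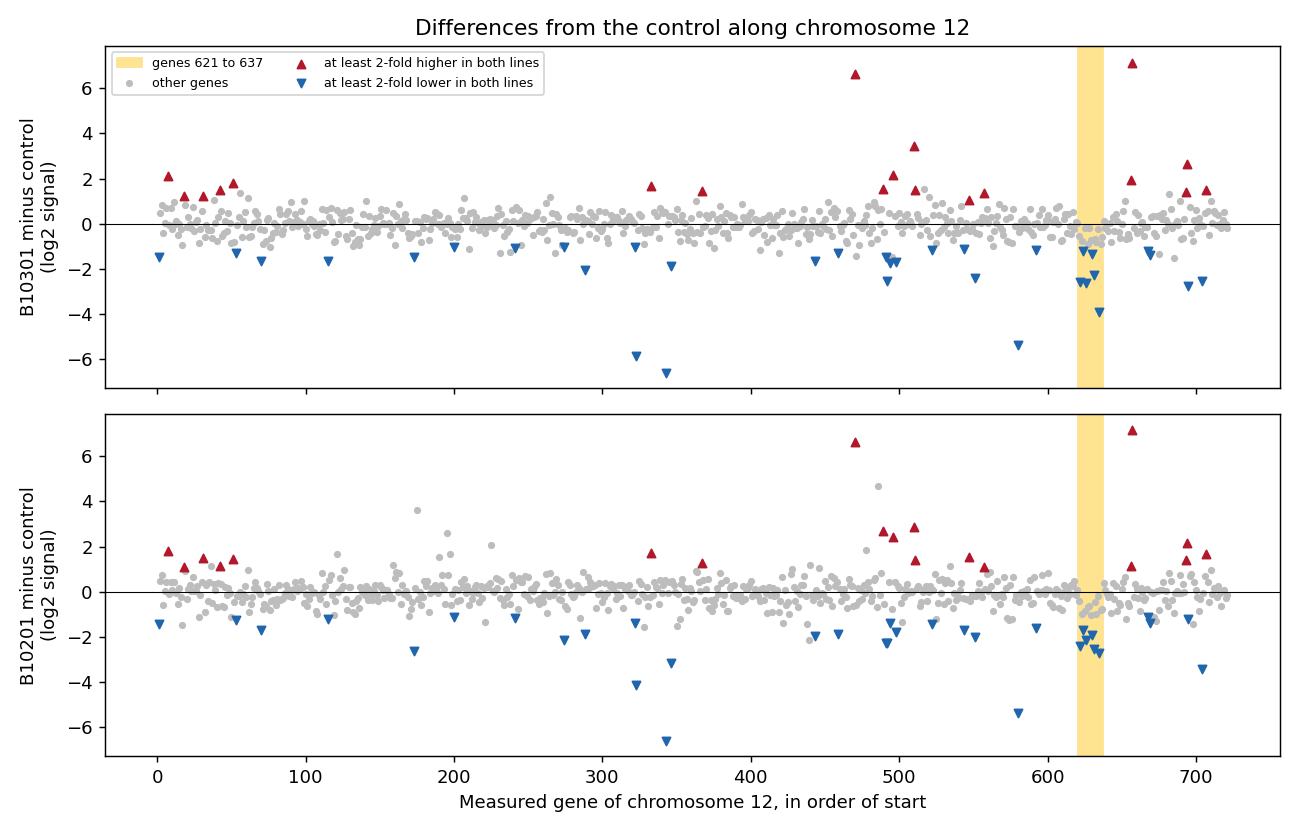
Log2 ratio of B10301 and of B10201 to the control array for each of the 721 measured genes of chromosome 12, against gene order from 1 to 721, with B10301 in the upper panel, triangles for 2-fold genes, grey points for the rest and shading at genes 621 to 637. LOC4352807 and LOC9266439 stand near 7.14 and 6.63 at genes 657 and 470, LOC4352102 at -6.60 is a bound set by the floor, and no 2-fold gene lies between genes 368 and 442.

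In windows of 20 consecutive measured genes, 11 of 37 windows (29.7%) held no 2-fold gene. The last window, which held only 1 gene, was among these 11. On the other chromosomes, 12.9% to 63.6% of windows held none. The most in a window was 6, reached at genes 481 to 500 and at genes 621 to 640, and genes 541 to 560 held 4. On the other chromosomes the most in a window was between 3 and 7. Of the 53 2-fold genes, 7 were followed by a measured neighbour that was 2-fold in the same direction (13.2%). On the other chromosomes that count ran from 1 to 11, and it was 11 on chromosome 11 (14.1%). No 3 measured genes in a row were 2-fold in the same direction.

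**Figure D3:**
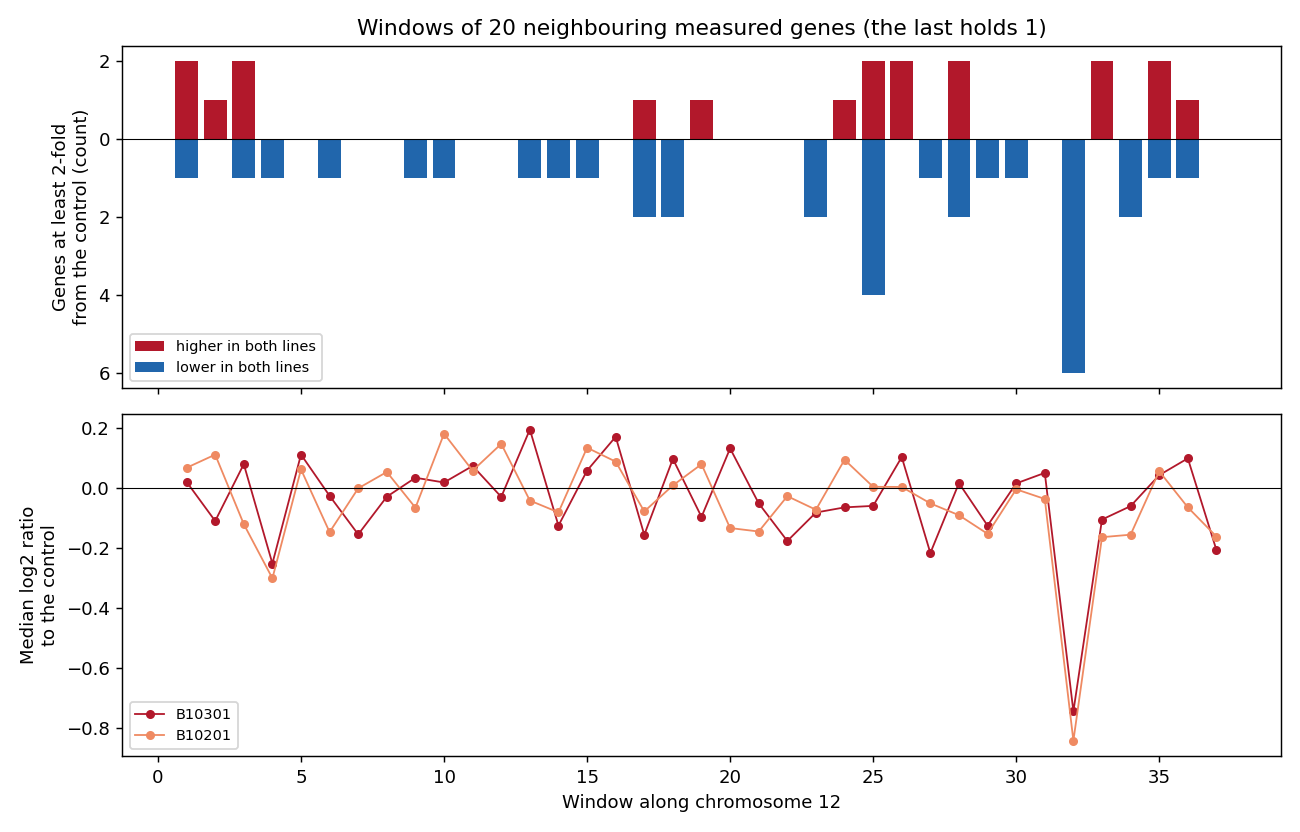
Count of 2-fold genes, higher or lower in each line, in each consecutive window of 20 measured genes along chromosome 12 (upper panel, higher genes upward and lower genes downward), and the median log2 ratio of all genes of the window in B10301 and B10201 (lower panel). Windows 25 and 32, at genes 481 to 500 and 621 to 640, hold 6 each, and the medians of window 32 lie at -0.75 and -0.84.

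The longest row of neighbouring members on the same side of the control lay at genes 621 to 637, from LOC4352748 to HOX33. All 17 of these consecutive measured genes read below the control in B10301, and all 17 did so in B10201. Their median log2 ratio was -0.82 in B10301 (range -3.93 to -0.17) and -0.99 in B10201 (range -2.72 to -0.18). Over all 721 members, 372 lay below the control in B10301 and 376 in B10201. This run was singled out after its values were seen, and it carries no test.

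Of the 17 genes, 6 were 2-fold lower in both lines. LOC4352774 differed most, with 7.84 in B10301 and 9.06 in B10201, against 11.77 in the control (15.2-fold and 6.57-fold lower). LOC4352768 read 7.92 in B10301 and 7.69 in B10201, against 10.21 in the control (4.90-fold and 5.73-fold lower). LOC4352760 read 7.19 in B10301 and 7.68 in B10201, against 9.80 in the control (6.11-fold and 4.35-fold lower). The B10301 value of LOC4352760 was one of those moved by 1 row, and as deposited its mean log2 ratio was -0.63. In these 3 genes both lines stood more than 4-fold under the control, by amounts that differed between the lines most in LOC4352774.

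LOC4352751 read 5.48 in B10301, under the floor, and 5.70 in B10201, against 8.10 in the control, at least 6.03-fold and 5.25-fold lower. A dimmer probe set of LOC4352751 went the other way, with 6.70 in B10301 and 6.32 in B10201, against 5.74 in the control. LOL2 (LOC4352767), a zinc finger protein of the LSD1 type, a family known for control of cell death and defence, read 7.30 in B10301 and 6.73 in B10201, against 8.63 in the control (2.51-fold and 3.72-fold lower). The last of the 6 was LOC4352758, with 7.80 in B10301 and 7.32 in B10201, against 8.998 in the control. Signals of these genes in the lines remained above the floor apart from LOC4352751 in B10301.

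The 11 other genes of the run were lower by less. HOX33 (LOC4352777), a class III homeodomain-leucine zipper transcription factor of the family that patterns leaves and vascular tissue, read 8.57 in B10301 and 8.41 in B10201, against 9.16 in the control. LOC4352775 read 10.48 in B10301 and 10.54 in B10201, against 11.36 in the control, and LOC4352752 read 10.83 and 10.60, against 11.59. LOC4352769 had log2 ratios of -0.67 in B10301 and -0.45 in B10201, and its other probe set gave -0.99 in both. The smallest differences were in LOC4352762, at -0.17 and -0.63, and LOC4352773, at -0.24 and -0.18.

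Genes on either side of the run had medians close to the control. The 17 genes before it had median log2 ratios of 0.09 in B10301 (range -0.78 to 0.79) and 0.02 in B10201 (range -0.81 to 0.50). The 17 after it had -0.03 in B10301 (range -0.82 to 1.01) and -0.09 in B10201 (range -1.21 to 0.67). The run was delimited by the sign of the ratio, so the genes next to it could not lie below the control. LOC4352747, just before, read 13.54 in B10301 and 13.61 in B10201, against 13.53 in the control, and LOC4352778, just after, read 9.86 and 10.14, against 9.74. The lines differed little from each other inside it: B10301 minus B10201 had a median of 0.17 (range -1.21 to 0.67), 9 of 17 genes were higher in B10301, and 1 gene, LOC4352774, was 2-fold apart. The gene table annotates 41 genes across the run, 31 of them protein-coding. Of 20 on the array, 3 did not exceed the floor. None of the 17 passed limma after adjustment, with 0.134 as the lowest adjusted p.

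The run held 3 genes whose B10301 values had been moved by 1 row, and the 14 others were all below the control in each line, with medians of -0.85 in B10301 and -0.99 in B10201. As deposited, 15 of 17 were below in B10301. On chromosomes 1 to 11 the longest row of consecutive measured genes on one side of the control had 12 genes in B10301 and 13 in B10201. In B10201, rows of 13 genes below the control lay on chromosomes 7 and 2. Their median log2 ratios were -1.03 on chromosome 7, further from the control than the run described here, and -0.19 on chromosome 2. A full window of chromosome 7 had medians of -0.66 in B10301 and -0.42 in B10201. The window at genes 621 to 640 had median log2 ratios of -0.75 in B10301 and -0.84 in B10201, the lowest of 714 full windows on all chromosomes in each line, while the lowest on chromosomes 1 to 11 were -0.66 and -0.49. Both lines were set against the same control array there, so the ratios are not independent.

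**Figure D4:**
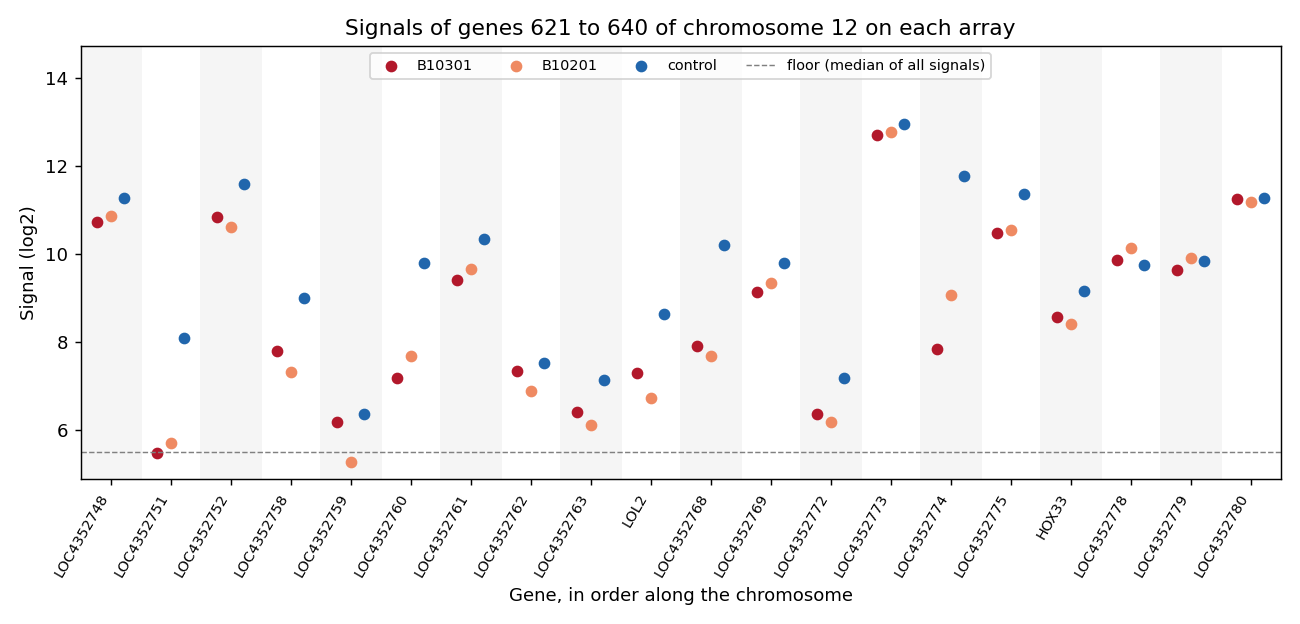
Log2 signal on each array for genes 621 to 640 of chromosome 12, in order, with B10301, B10201 and control points side by side and the floor of 5.50 as a dashed line. From LOC4352748 to HOX33 the control point lies above both line points in all 17 genes, and this ends at LOC4352778.

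The window at genes 481 to 500 held 2-fold genes of both directions, 2 higher and 4 lower. PBZ1 (LOC4352491), a pathogenesis-related protein of class 10 that is induced by probenazole and by blast infection in rice, read 12.89 in B10301 and 13.26 in B10201, against 14.63 in the control (3.34-fold and 2.59-fold lower). Its mean log2 ratio was -1.56 ± 0.26 (SD, n = 2 lines; limma adjusted p = 0.134). Nearby, LOC4352488 read 8.99 in B10301 and 9.28 in B10201, against 11.55 in the control (5.90-fold and 4.84-fold lower). LOC4352487 read 10.33 in B10301 and 9.51 in B10201, against 11.80 in the control (2.76-fold and 4.86-fold lower).

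LOC4352490, measured between LOC4352488 and PBZ1, lay above the control, with log2 ratios of 0.46 in B10301 and 0.41 in B10201. On the other side of PBZ1, LOC4352495 had -1.49 and -0.78, short of 2-fold in B10201. LOC4352498 read 7.59 in B10301 and 7.51 in B10201, against 9.28 in the control (3.22-fold and 3.40-fold lower). The 2 higher genes, LOC4352482 and LOC4352496, stood among them, and both had a control signal under the floor. Median log2 ratios of the whole window were -0.06 in B10301 and 0.00 in B10201.

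**Figure D5:**
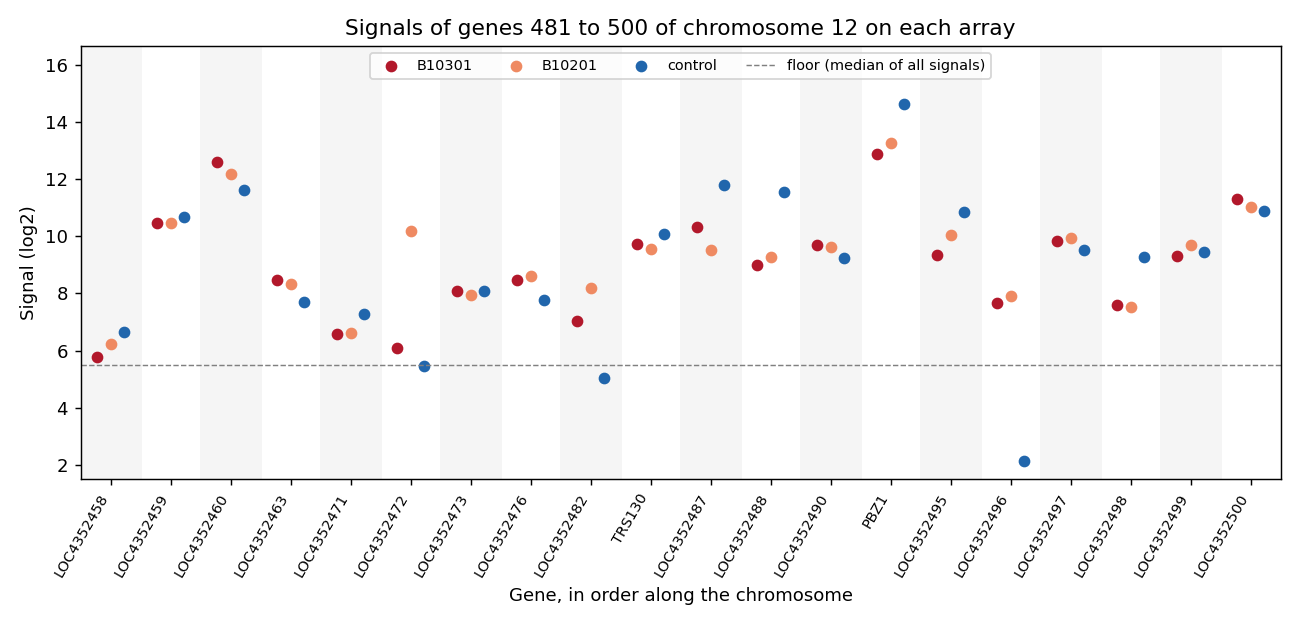
Log2 signal on each array for genes 481 to 500 of chromosome 12, in order, with B10301, B10201 and control points side by side and the floor of 5.50 as a dashed line. PBZ1 is the brightest gene and lies at 12.89 and 13.26 in the lines, against 14.63 in the control, and LOC4352472 is high in B10201 alone.

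At genes 541 to 560 the 4 2-fold genes alternated in direction. LOC4352591 read 7.66 in B10301 and 7.07 in B10201, against 8.78 in the control, and LOC4352609 was also lower, as given above. LOC4352601 read 9.45 in B10301 and 9.97 in B10201, against 8.43 in the control. LOC4352619 read 6.86 in B10301 and 6.60 in B10201, against 4.89 in the control, which was under the floor. Of the 16 other genes there none reached 2-fold in either line.

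Of the 7 pairs of neighbours with like direction, 5 lay outside these windows, 3 of them higher and 2 lower. LOC4352520 was followed by LOC4352522, which read 13.25 in B10301 and 13.14 in B10201, against 11.75 in the control. Its B10301 value was one of those moved by 1 row, and as deposited its mean log2 ratio was -0.84. LOC4352807 was preceded by LOC9270250, whose B10301 value was also moved, with 8.12 in B10301 and 7.34 in B10201, against 6.21 in the control. Neither pair had an annotated gene between its members. LOC4352871 and LOC4352873 were both higher, and the next measured gene, LOC4352876, was lower, with 5.61 in B10301 and 7.19 in B10201, against 8.38 in the control. The lower pairs were LOC4352029 with LOC4352036, given above, and LOC4352824 with LOC4352827. LOC4352029 read 10.38 in B10301 and 10.04 in B10201, against 11.43 in the control. LOC4352824 read 9.30 in B10301 and 9.41 in B10201, against 10.52 in the control. LOC4352827 was under the floor in both lines and read 6.90 in the control. Both lower pairs had annotated genes between their members, 7 in the first and 3 in the second.

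At the end of the short arm, which has a copy on chromosome 11, the first measured gene, LOC4351236, was read by an s_at probe set. It had 7.30 in B10301 and 7.35 in B10201, against 8.77 in the control. Its other probe set, with a mean under the floor, did not repeat this, with 5.46 in B10301 and 5.72 in B10201, against 4.25 in the control. In the first 3 windows, genes 1 to 60, 17 of 60 probe sets were of the x_at or s_at kind and 7 genes were 2-fold genes. Over all members, 11.4% of probe sets were of these kinds and 7.35% were 2-fold genes, and 4.61% of all genes were 2-fold genes. LOC4351321, also read by an s_at probe set and moved by 1 row in B10301, had 13.85 in B10301 and 13.53 in B10201, against 12.38 in the control, and its other probe set gave log2 ratios of 1.62 and 1.36. Signals of such probe sets may include the copy.

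Of the 721 members, 91 have a readable name, and 3 of these were 2-fold genes, all lower: CYP71P1, PBZ1 and LOL2. Over all members the share of 2-fold genes was 7.35%, and over all genes 4.61%. The median log2 ratio of named members was 0.02 in B10301 and 0.00 in B10201. The families below hold 1 to 6 measured members, too few to set their counts against those shares. Of the 6 calcium signalling genes measured, 0 were 2-fold genes, and on all chromosomes 3 of 66 were. CIPK32, a kinase that works with calcineurin B-like calcium sensors, read 12.37 in B10301 and 12.44 in B10201, against 12.33 in the control. CBL6 and CBL2, sensors of that kind, had log2 ratios of 0.33 and -0.16 in B10301 and of 0.12 and 0.05 in B10201. CIPK14 had -0.27 in B10301 and 0.44 in B10201.

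Of 3 auxin genes, 0 were 2-fold genes: the response factor ARF24 had log2 ratios of -0.29 in B10301 and -0.33 in B10201, and the repressors IAA30 and IAA31 had 0.79 and -0.78 in B10301 and -0.74 and -0.17 in B10201. Of 3 cytochrome P450 genes, 1 was lower, CYP71P1. CPD2, of brassinosteroid synthesis, read 11.13 in B10301 and 11.05 in B10201, against 10.56 in the control, and CYP714C2 had -0.88 and -1.10. The lipid transfer proteins LTP and LTP2-B had -0.78 and 0.03 in B10301 and -0.68 and 0.10 in B10201. Apart from CYP71P1, each of these genes lay within 2-fold of the control in at least 1 line.

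Further families had 1 or 2 measured members each. The ribosomal protein RPL3 had log2 ratios of -0.17 in B10301 and -0.27 in B10201, and the phosphatase OsPP2C78 had -0.26 and -0.10. The glutaredoxins GRXS12 and GRXC15, small redox enzymes, had 0.24 and 0.21 in B10301 and 0.47 and 0.32 in B10201. The kinesin KCH1, a motor that links actin and microtubules, read 6.28 in B10301 and 5.95 in B10201, against 4.52 in the control, which was under the floor, so its log2 ratios were at least 0.78 and at least 0.45 and do not place it within 2-fold. Lipoxygenase, germin-like, WRKY, NAC, MADS-box, cellulose synthase, DREB and ERF, ion transport and heat shock genes had no measured member under the names searched.

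Between the lines, which does not involve the control array, 37 members (5.13%) were at least 2-fold apart, against 4.15% of all genes. Of these, 16 were higher in B10301 (1.35% of all genes were) and 21 were lower in B10301 (2.80% of all genes were). With 1 array per line there is no test, and 9 of the 37 were at the floor in a line. By the same 4 parts of the chromosome they numbered 8, 10, 12 and 7, which was not the order of the 2-fold genes. Measured from the control, 13 of the 37 were 2-fold away in B10201 alone, 5 in B10301 alone, 7 in both and 12 in neither.

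LOC4352472 was the furthest apart, with 6.10 in B10301 and 10.17 in B10201, against 5.45 in the control, and its B10301 value was one moved by 1 row. LOC9267893 read 5.61 in B10301 and 9.12 in B10201, against 4.56 in the control. LOC4351673, also moved by 1 row in B10301, read 5.19 in B10301 and 8.08 in B10201, against 3.68 in the control. As deposited its mean log2 ratio was 2.44, in place of 1.29. LOC4351726 had 4.45 in B10301 and 7.55 in B10201, against 4.77 in the control. In these 4 genes B10201 was the highest of the arrays, and the B10301 and control signals lay closer to the floor.

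In the other direction, LOC4352127 read 7.71 in B10301 and 5.54 in B10201, against 7.04 in the control (4.50-fold between the lines). IAA30, an auxin response repressor, read 7.98 in B10301 and 6.45 in B10201, against 7.19 in the control, so the lines lay on opposite sides of the control. LOC4352346 read 10.31 in B10301 and 8.85 in B10201, against 10.99 in the control. LOC4352535, with a B10301 value moved by 1 row, had 8.28 in B10301 and 6.84 in B10201, against 6.73 in the control, and LOC4351466 had 7.01 in B10301, 5.28 in B10201 and 5.99 in the control.

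The 2-fold genes shared few features that had not chosen them. Their genes had a median annotated length of 3585 bases, against 4026 for the other members. By direction it was 4447 for the higher and 2988 for the lower genes. Probe sets of the x_at and s_at kinds made up 11.3% of the 2-fold genes and 11.4% of the others. Median control signal was 8.998 in the 2-fold genes and 9.83 in the others, and it was 6.57 for the higher and 9.91 for the lower genes. The control signal is part of the ratio that chose these genes, so this difference between directions is no finding.

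Another probe set was on the array for 15 of the 53 genes, 19 probe sets in all. Of these, 12 were above the floor, and 10 of the 12 had the sign of the first in both lines while 7 were 2-fold the same way in both. These 12 came from 10 genes, and some were of the x_at or s_at kind. All were read on the same arrays from the same RNA, so this does not replace further samples.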

How the data were processed

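Leaf RNA of 3 samples was measured on Affymetrix rice arrays, 1 array each. Values were deposited as log2 signals; per the submitters' processing notes the authors used MAS5, without a version, and no detection call is given in the sources used here. No further normalization was applied. In the B10301 column, the value of each probe set in stretches of 6717 and 988 rows was taken from 1 row above it. The annotation gave 1 gene for 22436 of 57194 probe sets, several for 95 and none for 34663, and only the first kind was used. Names, chromosome and order came from the gene table of another assembly, so no coordinates are given.

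Signals were raised to a floor of 5.50 (45.4 in linear signal), and ratios are each line minus the control on the log2 scale. A fold with 1 side at the floor is a bound. With 1 control array, counts have no test. limma 3.58.1 in R 4.3.3, with an intensity trend, used all 14396 genes, a two-sided Benjamini-Hochberg threshold of 0.05 and 1 residual degree of freedom, and assumed that the control varies like the lines. The labels mention no separate plantings, so p-values measure only the spread between these lines, which may be technical. In 5 members both lines lay at the floor, which makes their values equal and leaves no measured spread. The limma step was tested on simulated data, where it recovered the fold changes put in but called none of them after adjustment. That simulation drew spreads at random over genes, without an intensity trend, and its fold changes were smaller than those of the called genes. It therefore does not measure how many differences limma misses in these data. A low count of calls does not show that few genes differ. Other steps used Python 3.11.15, numpy 2.4.6, pandas 2.3.3 and matplotlib 3.10.9. The number of arrays limits the precision.

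The genes named were, per direction, the 12 with the largest smaller ratio among 2-fold genes and the 5 furthest apart between the lines, 2-fold genes with a readable name, the genes of the 3 windows with the most 2-fold genes, and up to 4 members per gene family. Members, families and rules were chosen with earlier results of these data known. The run of genes 621 to 637 and the neighbouring pairs fall partly outside this rule and were named after their values were seen. Alternatives covered the moved rows, the floor, scaling, the choice of probe set, the limma setting and each line left out.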

Additional observations from a re-analysis of the deposited data

How the results depend on the processing

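Limits lie in the 1 control array, the floor and the moved rows. No paired analysis was possible because there was 1 control array and the labels give no pairing of samples. Of the 53 2-fold genes, all 53 remained without the floor, at a floor and filter at the 25th percentile and after quantile normalization, and 49 after centring each array on its median, which moved the members' median log2 ratio to -0.15 in B10301 and -0.19 in B10201. With the moved rows left out, 44 of 44 measured remained and same-direction neighbours numbered 4. With all values as deposited, 49 remained, 135 genes were 2-fold apart between the lines, limma called 0 (69 at an unadjusted p under 0.05), and LOC4352522 turned to a mean log2 ratio of -0.84. At the 25th percentile, 49 genes were higher and 46 lower, 101 were apart between the lines, 13 had a same-direction neighbour, and limma called 0 (172 unadjusted). At the 75th percentile, 7 were higher, 14 lower, 4 apart between the lines and 1 with a same-direction neighbour, and limma called 0 (134 unadjusted). At that stricter floor 21 of the 23 2-fold genes still measured remained. Averaging all probe sets of a gene kept 44 of 51 measured, gave LOC4352751 -0.87 in place of -2.49, and turned CYP71P1 (LOC4351945) to 0.73 and LOC4352601 to -0.53, in both of which the second probe set is under the floor, and limma called 1. Without x_at and s_at probe sets limma called 1, since LOC9266439 has no probe set of another kind. It called 0 without the trend (155 unadjusted) and 4 with robust moderation, and the cause was not tested. The calls added by robust moderation, LOC4352102 and LOC9270774, were under the floor in both lines. Their spread between the lines was therefore set by the floor and not measured. With either line left out, 33 genes were higher, 46 to 59 were lower, 8 to 11 had a same-direction neighbour, and the fullest window held 7 to 8, each from the other line alone, and limma then has no residual degrees of freedom and gives no value. The run of genes 621 to 637 was below the control in every gene measured in both lines under the settings tried, apart from all values as deposited (15 of 17 in B10301) and the 25th percentile (18 of 19 in each line).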

Other observations

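Among the members with a readable name, 8 differed 2-fold or more from the control in 1 line only, of which CYP714C2 is described above. They were chosen after their values were seen and carry no test. Over all 14396 genes, B10301 exceeded the control by that much in 3.84% and fell short of it in 4.44%. For B10201 these shares were 4.62% and 4.49%, and 4.61% of genes passed in both lines with the same sign. Beside such shares, 8 of 91 named members is no sign of an excess. The largest of the 8 differences was in APX5 (LOC4351664), an ascorbate peroxidase that removes hydrogen peroxide. It read 5.91 in B10301 and 7.03 in B10201, against 5.40 in the control. That control signal was under the floor, so the log2 ratios of APX5 were at least 0.40 in B10301 and at least 1.53 in B10201. OsPSY2 (LOC4352846), a phytoene synthase of carotenoid synthesis, read 12.12 in B10301 and 11.64 in B10201, against 10.82 in the control. CHARK (LOC4352167), a receptor kinase with a cytokinin-binding domain, read 6.76 and 6.64 in B10301 and B10201, against 5.74 in the control. All 3 were above the control in both lines.

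The A-type cyclins CYCA2-1 (LOC4352280) and CYCA3-2 (LOC4352642), which act in the cell cycle, were below it in both. CYCA2-1 read 5.99 in B10301 and 6.75 in B10201, against 7.17 in the control. CYCA3-2 read 6.46 in B10301 and 6.03 in B10201, against 7.22 in the control. ART1 (LOC4351624), the transcription factor known for aluminium tolerance in rice, had 8.38 in B10301 and 7.95 in B10201, against 9.03 in the control. The last was the transporter ABCG50 (LOC4352332), with log2 ratios of 0.46 in B10301 and 1.01 in B10201.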
